A study of Homo sapiens with 27 samples.

Results

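Histone genes fall into classes that make their messenger RNA in different ways. The replication-dependent genes lie in clusters, are copied mostly while DNA is being replicated, and give transcripts that normally end just behind a short stem-loop, bound by the stem-loop binding protein SLBP, with no poly(A) tail. The lone genes encode variant histones, lie elsewhere in the genome and mostly give ordinary polyadenylated transcripts through the cell cycle.

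The transcripts of 34 histone genes were followed in 501mel, a human melanoma cell line high in the melanocyte factor MITF. The 34 genes were all those whose symbol begins with HIST1H to HIST4H in the 13523 genes of the deposited table, 28 clustered genes in all, with 6 lone genes (H2AFX, H2AFZ, H2AFV, H2AFY, H1FX and H3F3B). H1F0 and H3F3A, also in the rule, have no row in that table and could not be analysed. The clustered genes were 4 H1, 9 H2A, 9 H2B, 2 H3 and 4 H4 genes, 23 of them from HIST1, 4 from HIST2 and 1 from HIST3.

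WT (parental) cells were left untreated (n = 3), kept for 12 h in HBSS, a buffered saline with glucose but no amino acids (n = 2), or given 250 nM Torin, an inhibitor of the mTOR kinase, for 12 h (n = 2). Cells lacking TFE3 (TFE3 KO), TFEB (TFEB KO) or both (DKO), all transcription factors held in check by mTOR, were studied with Torin or as controls (12 h) with n = 3 each. The WT controls are labelled as not treated, whereas the KO controls carry a time of 12 h. Each KO was made with Cas9, and the single KOs were 1 clone each, so that clone and genotype cannot be told apart. The labels do not say whether replicates were separate cultures, so p-values measure only the spread between these libraries. The columns of WT HBSS replicate 3 and WT Torin replicate 1 held identical values and both were left out, which leaves 25 libraries.

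The libraries were made from total RNA with a 3′ end kit (QuantSeq Forward), which primes on runs of A and so takes up polyadenylated RNA, and each read stands for 1 priming site. A value is a normalised read count on a per-million scale, which needs no correction for gene length. Total histone mRNA, most of which has no tail, was not measured. The 25 libraries held 4147050 to 6526392 reads, so that 1 read was worth 0.153 to 0.237 and 3 reads 0.460 to 0.711. All 8 melanocyte markers examined had reads, at a summed 5168 to 14511. The keratinocyte, leukocyte and endothelial markers examined have no row in the table, and 3 of 5 fibroblast markers summed to 0.624 to 7.38. TFE3 averaged 24 in WT controls, 27.0 in TFEB KO, 6.30 in TFE3 KO and 6.35 in DKO controls. TFEB averaged 3.25 in WT controls, 1.11 in TFEB KO, 0.681 in TFE3 KO and 0.661 in DKO controls, so that TFEB reads do not separate the TFEB KO from the TFE3 KO. Reads from the 3′ end lie away from any edit near the start of a gene and are then no direct check of it.

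The stem-loop is shown first, since it is what normally takes the place of a poly(A) tail in the clustered genes. In the hg38 genome, 25 of the 28 clustered genes could be placed through a RefSeq symbol and the GENCODE annotation (HIST1H2BC, HIST1H2BF and HIST2H2BC could not). 1 reference transcript was used for each gene. That of all 25 had 1 exon, although HIST1H2BD and HIST3H2A also have annotated transcripts of up to 2 and 3 exons. All 25 held on the sense strand a stem arm of the letters GGNNCT, followed directly by a loop of the letters TTTN and then by a stem arm of the letters AGNNCC, where N is any base, within 150 bases after the stop codon, at 23 to 63 bases. Of the 6 lone genes only H2AFX, the H2A variant that is phosphorylated at DNA breaks, held them. Over 19849 protein-coding genes 70 (0.353%) did, and 26 of those 70 are described here. The stem-loops of the genes that carry most of the results are shown with 5 bases on either side; the capitals mark the 16 bases of the stem-loop.
HIST1H4C: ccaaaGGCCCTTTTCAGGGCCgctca
HIST1H1C: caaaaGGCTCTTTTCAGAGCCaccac
HIST1H2BK: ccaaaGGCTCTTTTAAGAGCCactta
HIST1H2BD: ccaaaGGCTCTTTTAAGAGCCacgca
HIST2H2BE: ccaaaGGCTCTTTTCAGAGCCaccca
H2AFX: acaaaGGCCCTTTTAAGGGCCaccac
The capitals lie at chr6:26104317-26104332 (+) for HIST1H4C, chr6:26055744-26055759 (-) for HIST1H1C and chr6:27146366-27146381 (-) for HIST1H2BK. They lie at chr6:26158587-26158602 (+) for HIST1H2BD, chr1:149886188-149886203 (-) for HIST2H2BE and chr11:119094898-119094913 (-) for H2AFX. The form seen in HIST1H1C and HIST2H2BE occurred in 15 clustered H1, H2A, H2B and H3 genes, the form of HIST1H4C in 3 H4 genes, and the form of H2AFX in no other placed gene.

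A poly(A) signal (AATAAA, sense strand) lay within 500 bases after the stop codon in 5 of the 25 placed clustered genes, against 40.9% of all protein-coding genes. It lay there in 3 of the 6 lone genes. H2AFV, H2AFX and H2AFY had none in this window, but their reference transcripts end 2523, 1089 and 595 bases after the stop, beyond its reach. The 2 clustered genes with by far the most reads were among the 5. In HIST1H4C, a histone H4 gene at chr6:26103933-26104337, the signal lay 234 bases after the stop, behind the annotated end at 78 bases. In HIST1H1C, a linker histone H1 gene at chr6:26055740-26056470, it lay at 56 bases, and the annotation ends at 47. The others were HIST1H2BD at 65 bases, HIST1H2AM at 156 and HIST1H4J at 16. HIST2H2BE, an H2B gene, had none of these letters in the window, but its reference transcript runs on for 1801 bases after the stop, against 44 to 84 bases in the other placed clustered genes. Longer annotated transcripts of HIST1H2BD and HIST3H2A end 12799 and 22648 genomic bases after the stop. A match to these letters describes the sequence and shows neither use of the site nor its absence. Runs of A within a transcript can also be primed on. The longest in the reference transcript was 7 bases in HIST1H4C, with 9 A in 10 bases at most, and 6 in HIST1H1C, with 8 in 10. Over the 25 genes it was 3 to 7, and HIST1H1A, with an average of 0.362, also had 7. Among the lone genes it reached 13 bases in H3F3B, 11 in H2AFV and 10 in H2AFY, but was 3 in H2AFX and H1FX and 6 in H2AFZ. Where reads were primed was not tested.

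**Figure D1:**
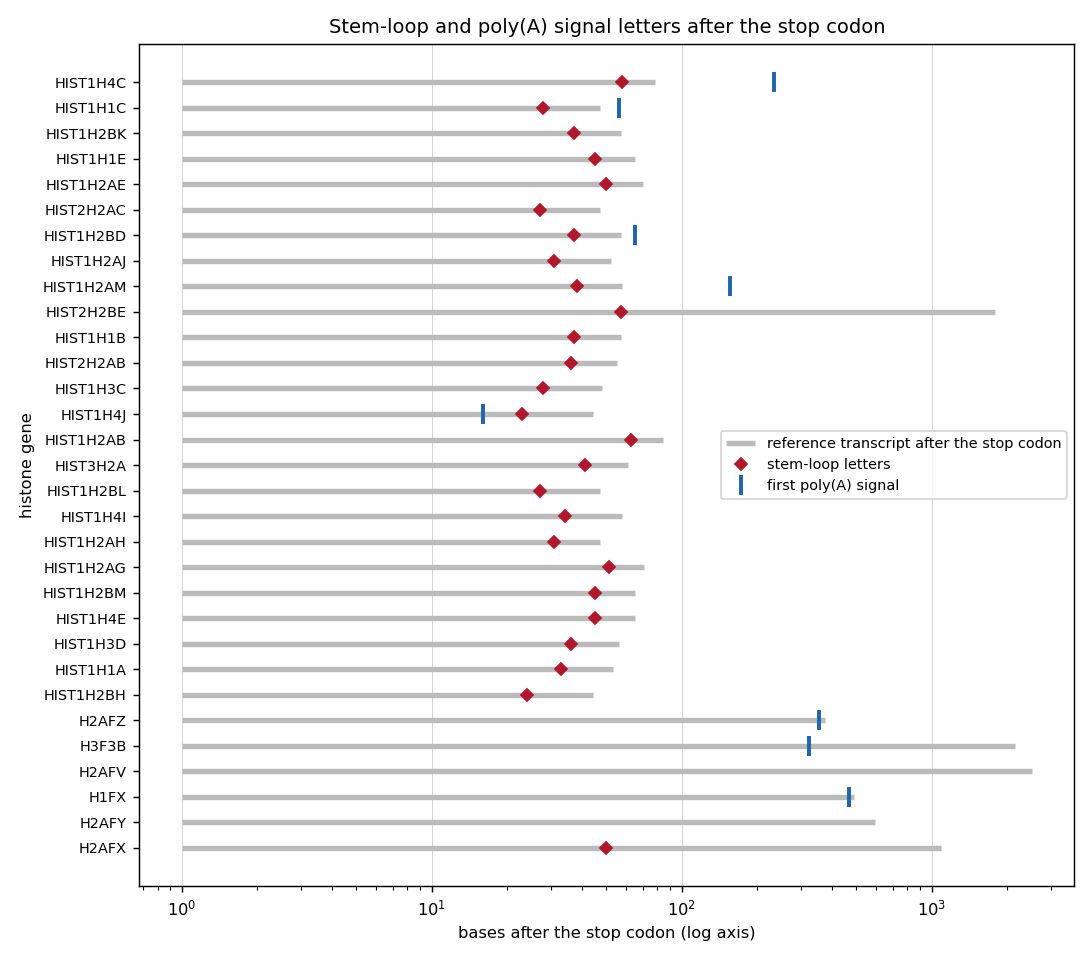
Position of the stem-loop letters (diamonds), of the first poly(A) signal within 500 bases (ticks) and extent of the reference transcript (grey bars) in bases after the stop codon, on a log axis, for the 25 placed clustered and the 6 lone histone genes. All 25 clustered genes and H2AFX have a stem-loop 23 to 63 bases after the stop, and 5 clustered and 3 lone genes have a poly(A) signal.

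Almost all reads of the clustered class came from a pair of genes. HIST1H4C averaged 636 over the 25 libraries and made up 71.2% to 86.1% (median 79.2%) of the summed clustered value. HIST1H1C averaged 107, and the pair together made up 89.5% to 96.3%. Another 6 clustered genes averaged between 2 and 20, namely HIST1H2BK (7.80), HIST1H1E (5.43), HIST1H2AE (5.19), HIST2H2AC (4.46), HIST1H2BD (3.59) and HIST1H2AJ (3.58). The remaining 20 averaged 0.339 to 1.44, a handful of reads a library. None of the 6 lone genes averaged under 20, from H2AFX at 31.6 and H2AFY at 146 to H2AFZ at 1431.

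Close copies limit the assignment of reads to some clustered genes. Cut into all stretches of 50 bases, the transcripts of HIST1H4C and HIST1H1C shared none with another gene. HIST1H2BK shared 57.2% of its stretches with 11 other genes, HIST1H2AJ 66.3%, HIST1H2AM 67.8%, HIST1H4J 92.1% and HIST1H3D 96.5%. In all, 8 of the 25 placed clustered genes shared over 10%, and the lone genes at most 8.28%. Over the last 100 stretches, nearest the 3′ end, the share was 52% in HIST1H2BK, 38% in HIST1H2AM, 73% in HIST1H4J and 100% in HIST1H3D. It was 10% in HIST1H2BL, 8% in HIST1H2AJ, 7% in HIST1H2BD and 0% in HIST2H2AC. Only the reference transcripts were cut, so sequence behind their annotated ends, also that of HIST1H4C and HIST1H1C, was not searched. How reads with several matches were counted is not given in the sources used here, and values of those 8 genes are uncertain for this reason.

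Of the 34 genes 30 reached a value of 1 in 3 or more libraries and were tested among 13052 genes. HIST1H4E, HIST1H3D, HIST1H1A and HIST1H2BH were not. A gene passed at a Benjamini-Hochberg adjusted p under 0.05 in limma on log2(value + 1), and is described as having risen or fallen in that case. It was called when the change was also at least 1 on the log2 scale. Fold changes on this scale understate those of genes near 1.

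With Torin most histone transcripts that had enough reads to follow were lower. HIST1H4C and H2AFX were called lower in all 4 genotypes. HIST1H1C, H2AFZ, H2AFV, H2AFY and H3F3B fell in all 4, and the linker histone gene H1FX rose in all 4. In WT cells 9 of the 30 tested genes were called lower and 0 higher, where 4% of all genes were called lower and 5.66% higher. TFE3 KO had 6 lower and 1 higher (4.69% and 6.98% of all genes), TFEB KO 3 lower and 0 higher (1.65% and 3.36%), and DKO 5 lower and 0 higher (4.29% and 6.83%). The order of these counts depends on the tool, since edgeR on the recovered reads called 9 in WT, 15 in TFE3 KO, 3 in TFEB KO and 14 in DKO, in either direction, beside 12.3%, 16.3%, 7.84% and 15.8% of all genes. At the adjusted p alone 13 of 30 were lower in WT and 20, 9 and 18 in the KO lines in that order, beside 23.4%, 26%, 21% and 26.2% of all genes. The median over the 24 tested clustered genes was -0.59, -0.84, -0.10 and -0.69 in the same order, the median over the 6 lone genes -0.74, -0.80, -0.50 and -0.83, and the median over all genes lay between 0.00 and 0.02. In bulk RNA, fewer cells of a kind, such as cells replicating their DNA, and less RNA per cell cannot be told apart.

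HIST1H4C was at 1255, 927 and 1025 in the WT controls and at 437 and 388 with Torin. In TFE3 KO it was at 918, 740 and 994 in controls and at 322, 320 and 334 with Torin. In TFEB KO it was at 801, 941 and 710 and then at 298, 425 and 424. The DKO had 993, 825 and 781 without and 319, 266 and 264 with Torin. Every Torin library lay below every control library of any genotype. The log2 changes were -1.36 ± 0.17 (SE, adjusted p = 5.2e-06 by limma) in WT, -1.43 ± 0.16 in TFE3 KO, -1.10 ± 0.16 in TFEB KO and -1.61 ± 0.16 in DKO. The call in TFEB KO rests on 2 libraries, since the change was -0.997 without control replicate 2 and -0.93 without Torin replicate 1, both just under the limit of 1, with the adjusted p still passing.

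HIST1H1C was at 164, 114 and 137 in WT controls and at 89.5 and 67.6 with Torin. In TFE3 KO the controls were at 144, 144 and 148 and the Torin libraries at 77.4, 81.3 and 90.5. In TFEB KO they were at 101, 111 and 107 against 67.3, 95.8 and 64.3, and in DKO at 154, 135 and 121 against 93.1, 73.6 and 56.5. The groups did not overlap in any genotype. The fall was 0.81, 0.80, 0.51 and 0.89 on the log2 scale in WT, TFE3 KO, TFEB KO and the DKO, with limma adjusted p of 0.0019, 0.00057, 0.024 and 0.00021. In TFEB KO the test no longer passed without either of 2 control or 2 Torin libraries (adjusted p 0.060 to 0.11), nor in edgeR (0.068).

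**Figure D2:**
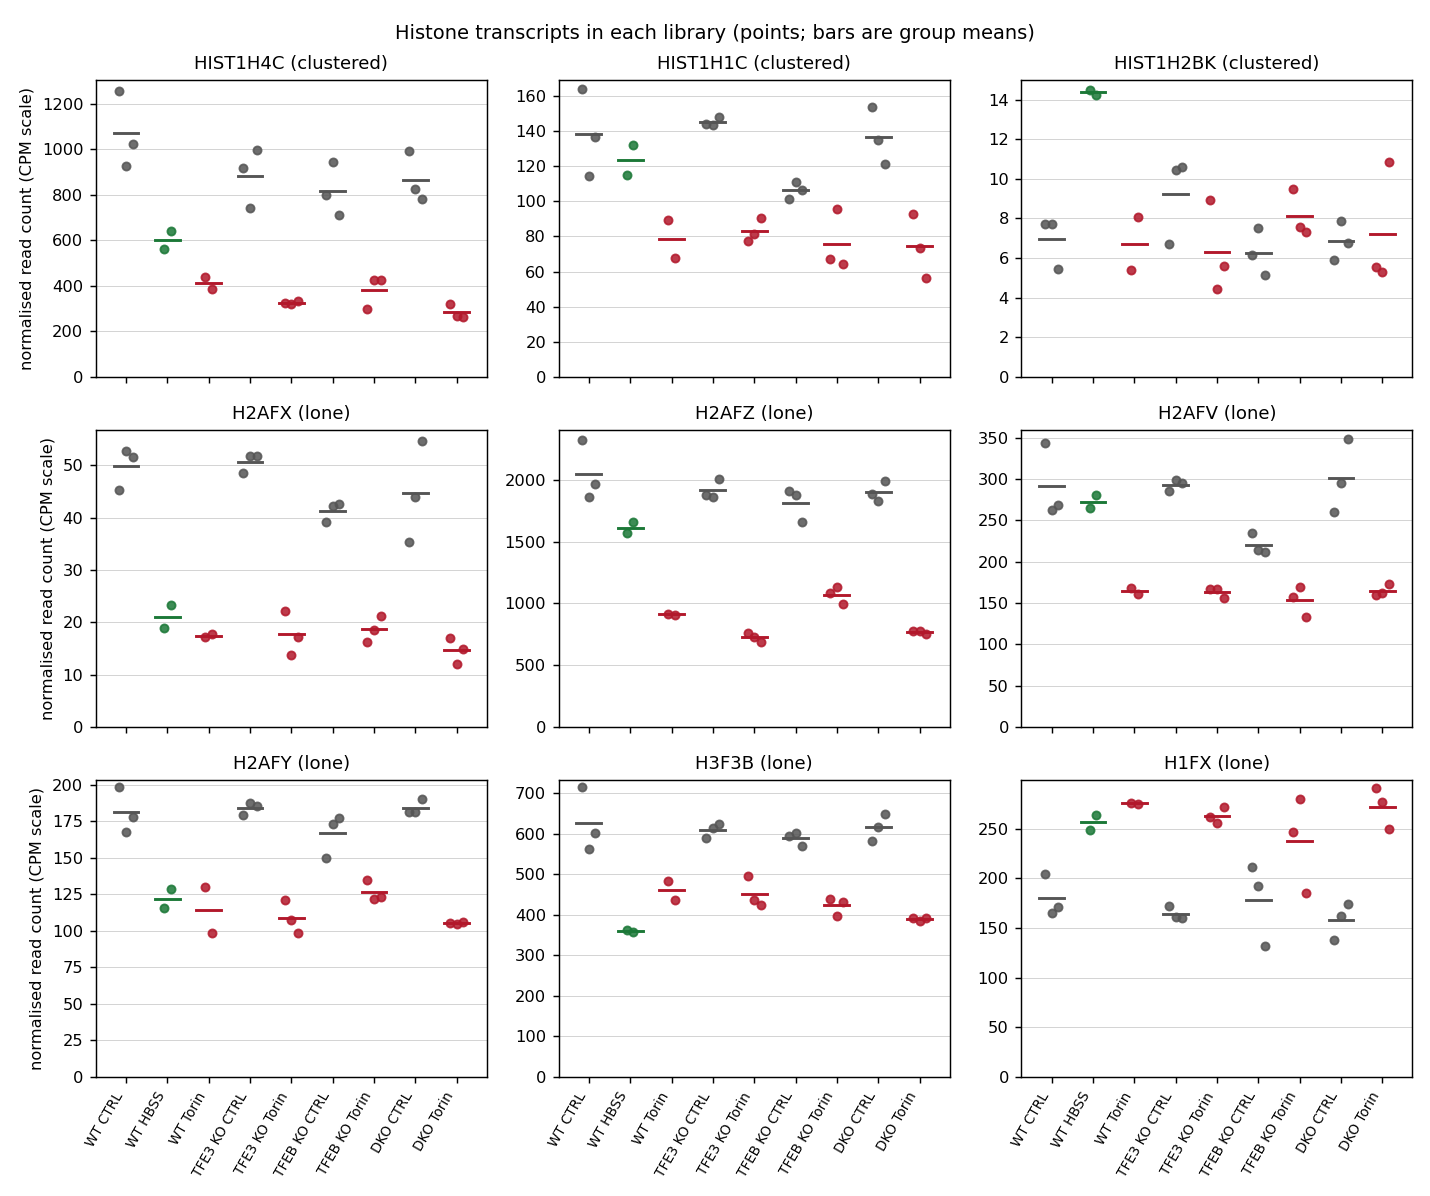
Normalised read count (per-million scale, linear axes from 0) of 3 clustered and 6 lone histone genes in each of 25 libraries by group; points are libraries, bars are group means, grey is control, green HBSS and red Torin. HIST1H4C, H2AFX and H2AFZ are lower in every Torin library than in every control, H1FX reaches 185 to 291 with Torin against 132 to 212 in the controls, and HIST1H2BK is highest in the 2 HBSS libraries.

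The lone genes of the rule that encode H2A variants fell with Torin as well. H2AFX was at 45.4, 52.7 and 51.5 in WT controls and at 17.1 and 17.8 with Torin. In TFE3 KO it went from 48.6, 51.7 and 51.8 to 22.0, 13.8 and 17.3, in TFEB KO from 39.2, 42.2 and 42.6 to 16.2, 18.5 and 21.2, and in DKO from 35.4, 43.9 and 54.6 to 17.1, 11.9 and 15. The log2 changes were -1.46 ± 0.17, -1.49 ± 0.15, -1.11 ± 0.15 and -1.54 ± 0.15 (SE; limma adjusted p at most 3.9e-08), and no Torin library reached a control.

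H2AFZ and H2AFV encode the H2A.Z variants, which are placed into nucleosomes outside replication. H2AFZ was at 2323, 1860 and 1965 in WT controls and 917 and 904 with Torin, and in TFE3 KO at 1880, 1858 and 2006 against 762, 726 and 685. In TFEB KO it was at 1910, 1876 and 1660 against 1080, 1129 and 995, and in DKO at 1883, 1832 and 1992 against 775, 776 and 754. All Torin libraries were lower than all controls, and those of TFEB KO were the highest among them. The changes were -1.16 ± 0.07, -1.40 ± 0.07 and -1.31 ± 0.07 in WT, TFE3 KO and DKO, which were called, and -0.76 ± 0.07 in TFEB KO, which was not. With the duplicated column kept as a WT Torin library the WT change was -0.84 and not called. H2AFV was at 343, 263 and 269 in WT controls and 168 and 160 with Torin, at 286, 299 and 295 against 167, 167 and 156 in TFE3 KO, at 235, 214 and 212 against 158, 170 and 133 in TFEB KO and at 260, 295 and 349 against 159, 162 and 173 in DKO. Its falls of 0.82, 0.84, 0.52 and 0.86 on the log2 scale all passed (limma adjusted p at most 8.3e-06).

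H2AFY encodes macroH2A, a large H2A variant of silent chromatin, and H3F3B an H3 variant laid down outside replication. H2AFY was at 198, 168 and 178 in WT controls and 130 and 98.6 with Torin, and it fell by 0.67, 0.76, 0.39 and 0.80 in WT, TFE3 KO, TFEB KO and the DKO. The KO controls were at 179, 187 and 186 (TFE3 KO), 150, 173 and 177 (TFEB KO) and 182, 181 and 190 (DKO), and the matching Torin libraries at 121, 108 and 98.2, at 135, 122 and 123, and at 105, 104 and 106. H3F3B was at 714, 561 and 602 in WT controls and 483 and 437 with Torin, and it fell by 0.44, 0.43, 0.48 and 0.66. Its KO controls were at 590, 614 and 624 (TFE3 KO), 594, 601 and 570 (TFEB KO) and 581, 616 and 648 (DKO), and the Torin libraries at 496, 437 and 424, at 440, 397 and 432, and at 391, 385 and 393. For both genes no Torin library reached a control of its genotype.

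H1FX, which encodes a linker histone H1 variant, moved the other way. It was at 204, 165 and 171 in WT controls and 276 and 275 with Torin, at 172, 161 and 160 against 262, 255 and 271 in TFE3 KO and at 138, 162 and 175 against 291, 276 and 249 in DKO. In TFEB KO the controls at 212, 192 and 132 overlapped the Torin libraries at 247, 279 and 185. The rises were 0.62 ± 0.17, 0.67 ± 0.15, 0.42 ± 0.15 and 0.78 ± 0.15 (SE) in WT, TFE3 KO, TFEB KO and the DKO, with limma adjusted p of 0.0054, 0.00084, 0.034 and 0.00021. In TFEB KO the rise no longer passed in a fit of the compared libraries alone (adjusted p = 0.23), and it was 0.21 without control replicate 3 (0.15).

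**Figure D3:**
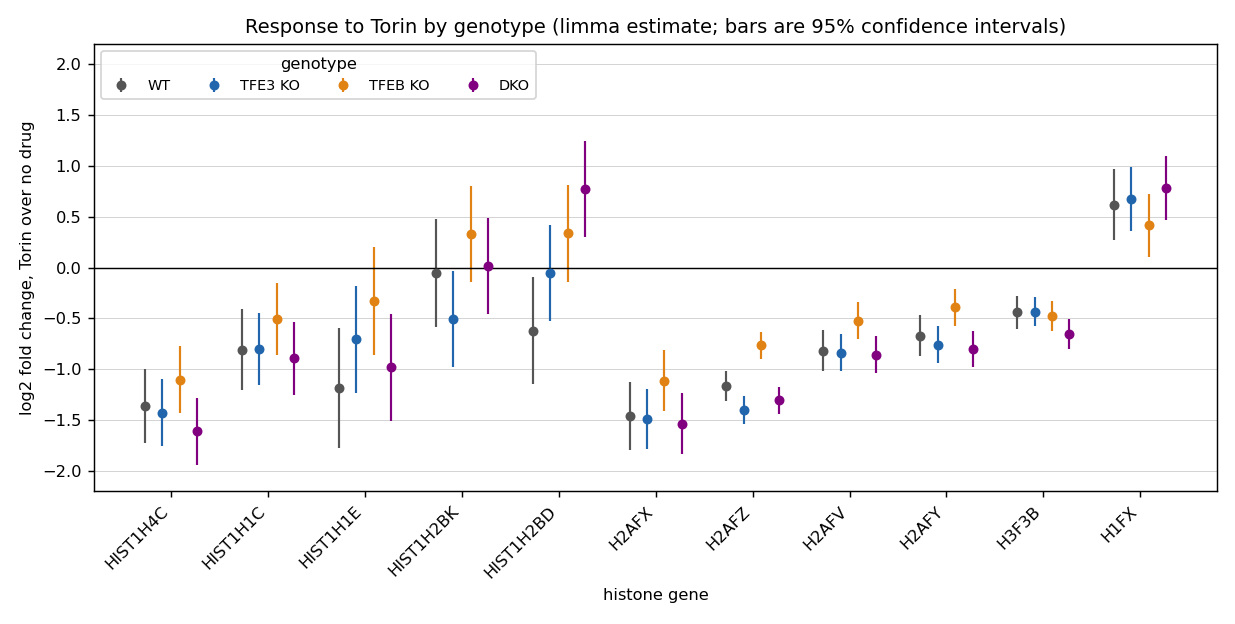
Log2 fold change of Torin over control for 5 clustered and 6 lone histone genes in WT cells and the 3 KO lines, as estimated by limma on log2(value + 1); bars are 95% confidence intervals. HIST1H4C, H2AFX and H2AFZ lie between -0.76 and -1.61, H1FX lies between 0.42 and 0.78, and HIST1H2BK and HIST1H2BD spread around 0.

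The clustered genes with fewer reads were less uniform. HIST1H1E, another linker H1 gene, went from 8.22, 6.73 and 8.98 to 2.58 and 3.32 with Torin in WT (-1.18 ± 0.29, adjusted p = 0.00093 by limma). It fell by 0.71 in TFE3 KO, from 8.83, 7.05 and 9.51 to 4.45, 7.12 and 3.33, and by 0.98 in DKO, from 9.04, 4.88 and 7.36 to 4.0, 1.71 and 3.74. In TFEB KO its values of 4.55, 5.06 and 3.81 and of 3.79, 4.24 and 2.24 did not pass (adjusted p = 0.34). HIST1H2AE and HIST2H2AC, both H2A genes, fell in TFE3 KO and DKO. Of the 16 tested clustered genes with a mean under 2, 5 were called lower in WT, 2 in TFE3 KO, 1 in TFEB KO and 1 in DKO. HIST1H2BL, HIST1H4I, HIST1H2AG and HIST1H2BM reached a value of 1 only in control libraries. HIST1H2AB and HIST1H2AH reached it only in control and HBSS libraries. All of these genes were thus tested only through libraries without Torin, where they were high. This favours a fall with Torin, and their falls are no separate support. The counts of calls include HIST1H2BL in WT, HIST1H4I in TFE3 KO and HIST1H2AB in TFEB KO, and the clustered medians include all of them.

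Many of these calls rest on few reads. In WT cells with Torin HIST1H1B, a linker H1 gene, had 1 read over 2 libraries, against 40 in 3 controls, a ratio of control to Torin of 20.9 (exact 95% interval of counting error 3.54 to 845). HIST2H2AB, an H2A gene, had 1 read against 27, a ratio of 14.1 (2.32 to 577). HIST1H2BC had 4 against 41, a ratio of 5.35 (1.94 to 20.6), and HIST1H2BL, like it an H2B gene, 1 against 22, a ratio of 11.5 (1.86 to 474). HIST1H4I had 1 against 26 in TFE3 KO, a ratio of 19.6 (3.22 to 803), and HIST1H2BF 3 against 40 in DKO, a ratio of 12.1 (3.86 to 61.2). Intervals of this kind cover counting error only. The duplicated column may or may not be a WT Torin library. It had 11 reads of HIST1H1B, 10 of HIST2H2AB, 6 of HIST1H2BC and 1 of HIST1H2BL. With it kept as WT Torin replicate 1, 7 of the 13 called results that use WT Torin were no longer called.

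HIST1H2BK, HIST1H2BM, HIST1H4J, HIST2H2BC and HIST3H2A passed with Torin in no genotype, with changes of -0.51 to 0.33 for HIST1H2BK. A pair of H2B genes rose with Torin, each in 1 KO line. HIST1H2BD was at 2.96, 2.61 and 2.50 in DKO controls and 5.69, 4.74 and 5.51 with Torin, a rise of 0.77 (limma adjusted p = 0.0053) with no overlap, whereas in WT it was at 3.29, 3.96 and 5.27 against 2.81 and 1.90 and did not pass (-0.62, adjusted p = 0.052). The difference between these responses, 1.39 ± 0.35, also missed the limit (adjusted p = 0.052). HIST2H2BE was called higher with Torin in TFE3 KO, where it had 4, 6 and 1 reads in the controls and 11, 10 and 12 with Torin (1.10 ± 0.29, adjusted p = 0.0013). Without TFE3 KO control replicate 3 the change was 0.89 and not called.

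**Figure D4:**
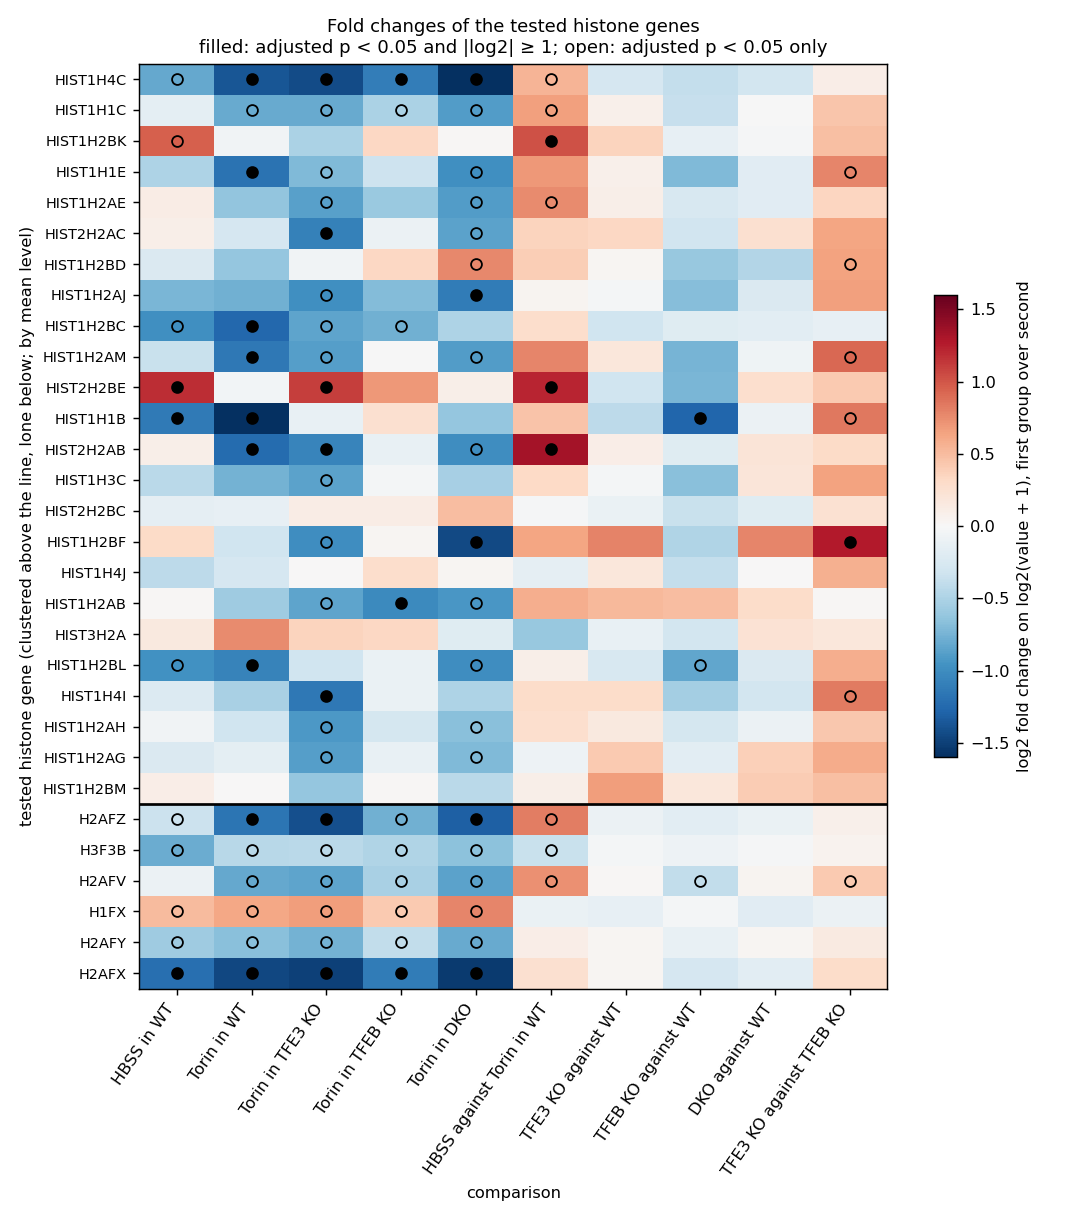
Log2 fold changes (colour) of the 30 tested histone genes in 10 comparisons, rows ordered by class and mean value; filled circles are called genes and open circles genes that passed the adjusted p alone. HIST1H4C and H2AFX carry filled circles in all 4 Torin columns, H1FX is the row of rises among the lone genes, and the columns of TFE3 KO and DKO against WT hold 0 circles.

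In HBSS the response of the WT cells was smaller and mixed. HIST1H4C fell and so did H2AFX, H2AFZ, H2AFY and H3F3B, while the H2B genes HIST1H2BK and HIST2H2BE and the linker gene H1FX rose. Of 30 genes 1 was called higher and 2 lower, where 13.1% of all genes were called in either direction. At the adjusted p alone 3 rose and 8 fell, which together lie below the 48.3% of all genes that passed. The median over the clustered genes was -0.18 and over the lone genes -0.45, beside -0.03 over all genes.

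HIST1H4C was at 563 and 638 in HBSS, below the lowest WT control of 927, a fall of 0.82 ± 0.17 (SE, limma adjusted p = 0.00074). HIST1H1C at 115 and 132 lay within the controls, with a difference of -0.15 (95% interval -0.55 to 0.25). H2AFX was at 18.9 and 23.2 against 45.4 to 52.7 and was called (-1.21 ± 0.17, adjusted p = 3.5e-08). H2AFZ was at 1572 and 1655, a fall of 0.34, and H2AFV at 265 and 280 had a difference of -0.09 (-0.29 to 0.12). H2AFY at 116 and 128 fell by 0.57 and H3F3B at 363 and 357 by 0.79. H1FX was at 249 and 264, above all WT controls, a rise of 0.51 (adjusted p = 0.016) that no longer passed without WT control replicate 2 or either HBSS library (adjusted p 0.050 to 0.094).

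HIST1H2BK was highest in HBSS, at 14.5 and 14.2 against 7.72, 7.72 and 5.46 in the WT controls and 5.39 and 8.06 with Torin. The rise over the controls was 0.96 ± 0.26 (limma adjusted p = 0.0021) and the highest library of the other 8 groups was at 10.8. HIST2H2BE had 15 and 16 reads in HBSS against 4, 9 and 3 in the controls (1.18 ± 0.33, adjusted p = 0.0022). HIST1H1B, with 5 reads in 2 HBSS libraries against 40 in 3 controls, was called lower, a call lost without WT control replicate 3, without HBSS replicate 2 or with the duplicated column kept as an HBSS library.

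HBSS and Torin were also set against each other in WT. Of the 30 genes 8 were higher in HBSS at the adjusted p, a share close to the 26.1% of all genes that were higher. H3F3B was lower, and the 9 together lie below the 49.2% of all genes that passed in either direction. HIST1H2BK, HIST2H2AB and HIST2H2BE were called higher, beside 6.95% of all genes. H2AFZ was higher by 0.82 ± 0.08 and H2AFV by 0.73 ± 0.11, with no overlap, HIST1H4C by 0.54 (adjusted p = 0.026) and HIST1H1C by 0.66 (0.014). All 3 calls, and the passes of H2AFV, H3F3B, HIST1H4C and HIST1H1C, were lost with the duplicated column kept as a WT Torin library. HIST1H4C passed neither without HBSS replicate 2 nor without Torin replicate 3. The HBSS and Torin comparisons with the WT controls share those 3 control libraries.

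The values of each class were also summed. The clustered sum was 1267 ± 194 (SD, n = 3) in WT controls, 780 ± 62.7 (n = 2) in HBSS and 523 ± 47.0 (n = 2) with Torin, and the lone sum 3378 ± 399, 2645 ± 87.9 and 1942 ± 70.3. The ratio of clustered to lone was 0.374 ± 0.014, 0.295 ± 0.014 and 0.269 ± 0.014, with no overlap between the WT controls and either treatment. In TFE3 KO it was 0.340 without and 0.259 with Torin, in TFEB KO 0.319 and 0.244 and in DKO 0.332 and 0.228, lower with Torin and without overlap in each. The lower ratio with treatment rests on HIST1H4C. Without it the ratio was 0.0585, 0.0679 and 0.0568 in WT controls, HBSS and Torin, with overlap between controls and Torin. In TFE3 KO it was then 0.0655 without and 0.0699 with Torin, in TFEB KO 0.0484 and 0.0541 and in DKO 0.0606 and 0.0634. The 26 clustered genes other than HIST1H4C and HIST1H1C summed to 59.2 ± 1.12 in WT controls, 56.2 ± 2.84 in HBSS and 31.9 ± 3.42 with Torin. The lone sum was led by H2AFZ, which averaged 1431 over the 25 libraries, so the ratio weighs these genes most. All these sums are a description, with no test.

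**Figure D5:**
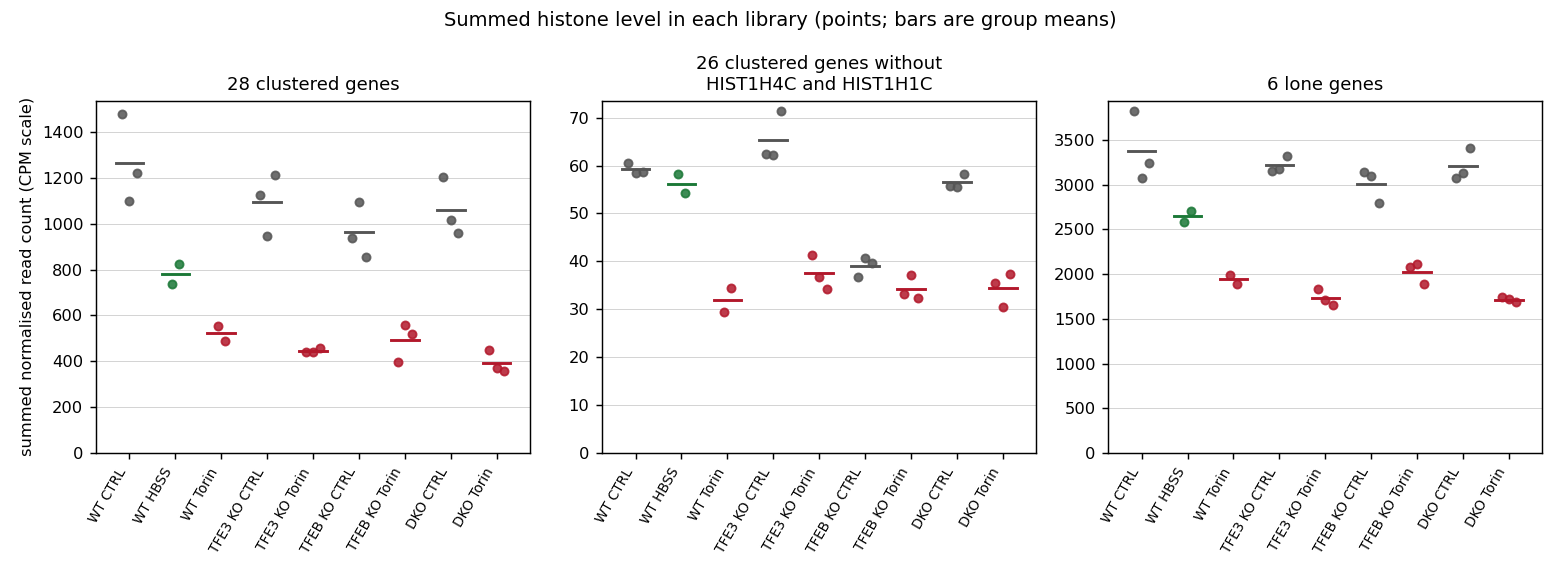
Summed normalised read count (per-million scale, linear axes from 0) of the 28 clustered genes, of the 26 clustered genes without HIST1H4C and HIST1H1C, and of the 6 lone genes in each of 25 libraries by group; points are libraries and bars group means. In the middle panel the TFEB KO controls (36.7 to 40.7) lie below all other controls (at least 55.6).

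Without drug, loss of TFE3 or of both factors left all tested histone genes short of the test's limit. In TFE3 KO and in DKO against WT 0 of 30 were called in limma, beside 1.52% and 1.82% of all genes, and 0 passed. At an unadjusted p under 0.05 there were 2 and 1, and the share of all genes at that level is not given here. Neither edgeR nor DESeq2 called any. HIST1H4C differed from WT by -0.27 (95% interval -0.60 to 0.06) in TFE3 KO and by -0.30 (-0.63 to 0.03) in DKO. The intervals of H2AFX (-0.27 to 0.32 and -0.47 to 0.12) and H2AFZ (-0.23 to 0.04 and -0.24 to 0.03) also reached 0.

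In TFEB KO against WT controls 2 of 24 clustered genes and 1 lone gene passed, all lower, beside 7.18% of all genes. They were HIST1H1B, HIST1H2BL and H2AFV. HIST1H2BL reached a value of 1 in no TFEB KO library and would not have been tested without the WT controls, where it was high. Its fall is therefore no separate support, although the counts and the clustered median given here include it. The median over the clustered genes was -0.37 against WT controls and over the lone genes -0.14, and 12 of 30 genes did not overlap between the groups, beside 28.2% of all genes. At an unadjusted level 12 of 30 had a p under 0.05, and the share of all genes at that level is not given here. HIST1H1B was called, with 6 reads in 3 TFEB KO controls and 40 in 3 WT controls, a ratio of 6.46 (2.72 to 18.6), beside 1.67% of all genes called in either direction. That call was lost without WT control replicate 3. H2AFV, with its 235, 214 and 212 below all WT controls, fell by 0.39 ± 0.09 (limma adjusted p = 0.0019). HIST1H4C and HIST1H1C differed by -0.38 (-0.71 to -0.06, adjusted p = 0.11) and -0.36 (-0.72 to -0.01, adjusted p = 0.17).

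TFE3 KO and TFEB KO controls did not overlap for 16 of 30 genes, beside 42.8% of all genes. At the adjusted p 7 were higher in TFE3 KO and 0 lower, where 14.3% of all genes were higher. They were HIST1H1E, HIST1H2BD, HIST1H2AM, HIST1H1B, HIST1H2BF, HIST1H4I and H2AFV. HIST1H4I would not have been tested without the TFE3 KO controls, where it was high, so its difference is no separate support. The same holds for HIST1H2AG, which is among the genes without overlap. HIST1H2BF alone was called, with 42 reads in 3 TFE3 KO and 5 in 3 TFEB KO controls, a ratio of 7.12 (2.82 to 23.1), beside 4.05% of all genes called. The summed value of the 26 less abundant clustered genes was 65.3 ± 5.31 (SD, n = 3) in TFE3 KO controls, 39.0 ± 2.08 in TFEB KO controls and 56.5 ± 1.47 in DKO controls. With Torin the 3 KO groups came to 37.5, 34.2 and 34.5, and in TFEB KO the sums with Torin (32.4 to 37.1) overlapped those without (36.7 to 40.7). The comparisons with WT share the WT controls, and this one shares the TFE3 KO and the TFEB KO controls with them.

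Whether the response to Torin itself differed by genotype was tested as an interaction against WT. In TFE3 KO and DKO 0 of 30 genes passed or were called in limma, beside 0.276% and 0.161% of all genes called, and neither edgeR nor DESeq2 called any. At an unadjusted p under 0.05 there were 4 and 3, and the share of all genes at that level is not given here. In TFEB KO H2AFZ fell less, by a difference of 0.40 ± 0.10 (adjusted p = 0.033), and HIST1H1B had a difference of 1.85 ± 0.49 (0.045), beside 0.207% of all genes called. Both depend on the libraries used. H2AFZ no longer passed without WT control replicate 1, without TFEB KO control replicate 3, without TFEB KO Torin replicate 1 or 2 or without either WT Torin library (adjusted p 0.070 to 0.15), and its difference was 0.08 with the duplicated column kept as a WT Torin library. The difference in TFEB KO was 0.26 (-0.23 to 0.75) for HIST1H4C, 0.35 (-0.10 to 0.79) for H2AFX and 0.29 (0.02 to 0.57, adjusted p = 0.33) for H2AFV.

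Genes that act with histone mRNA were taken from lists. Of 40 core DNA replication genes, 12 were called lower in HBSS and 24, 28, 9 and 26 with Torin in WT, TFE3 KO, TFEB KO and the DKO, and 0 higher in each. Of all genes 6.2% were called lower in HBSS and 4%, 4.69%, 1.65% and 4.29% with Torin. The list's medians were -0.73, -1.09, -1.32, -0.75 and -1.35. CDC6, a loader of the replicative helicase, fell by 1.87 in HBSS and by 1.65 with Torin in TFEB KO, RRM2, a subunit of ribonucleotide reductase, fell by 2.37 with Torin in WT, and MCM10 fell by 2.77 in TFE3 KO and 2.73 in DKO. Their part in the changes of the histone genes was not tested.

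Of 27 tested genes for histone mRNA 3′ end processing and turnover, 1 was called higher in HBSS (LSM11, 1.05) and 3, 4, 1 and 3 lower with Torin in WT, TFE3 KO, TFEB KO and the DKO. The HBSS count lies below the 6.9% of all genes called higher there, and the Torin counts stand beside 4%, 4.69%, 1.65% and 4.29% of all genes called lower. SLBP itself fell by 1.30 with Torin in WT. SNRPG, a core protein of small nuclear RNPs, fell by 1.46 in WT, and LSM10, a protein of the histone pre-mRNA processing particle, fell by 1.47 in TFE3 KO, 1.01 in TFEB KO and 1.38 in DKO. Of 32 histone chaperone and deposition genes 6, 5, 2 and 3 were called lower with Torin, beside the same shares of all genes, led by ASF1B (-1.55, -2.23 and -2.36 in WT, TFE3 KO and DKO) and, in TFEB KO, by CHAF1A (-1.30), a subunit of the factor that places new histones at replication forks. In HBSS ASF1B fell by 1.12 and CABIN1 rose by 1.08, among 2 called in each direction, beside 6.2% of all genes lower and 6.9% higher. Lone histone genes outside the rule were listed as well, and CENPA, H2AFY2 and HILS1 were tested. In HBSS CENPA was called higher by 1.74 (76.4 against 22.5) and HILS1 lower by 1.19 (4.91 against 12.7), beside the same shares. With Torin H2AFY2 was called higher in WT (1.13, an average of 1.77 against 0.285), beside 5.66% of all genes. None of them was called with Torin in a KO line.

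Of 11 genes for histone gene transcription 3 were called lower with Torin in each genotype, again beside 1.65% to 4.69% of all genes. CCNE2, a cyclin E gene, had the largest fall in WT (2.27), TFE3 KO (3.10) and DKO (2.49), and E2F1 in TFEB KO (1.31). HINFP, a factor for H4 genes, rose by 1.10 in WT. In HBSS CCNE2 fell by 1.75 and POU2F1, which encodes the octamer-binding factor, rose by 1.42. Of 19 cleavage and polyadenylation genes 0 were called with Torin in any genotype in limma. In either direction 9 to 13 passed the adjusted p alone, and 11 to 13 had an unadjusted p under 0.05. Of all genes 21% to 26.2% passed as lower with Torin. The shares of all genes in either direction are not given here, so whether these counts exceed them was not tested. CSTF2T fell by 1.42 in HBSS.

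The promoters, 250 bases before to 50 after the start in RefSeq, were matched for 23 clustered and 6 lone genes, that of HIST1H4C not among them. The letters CACGTG, bound by the MITF family, occurred on either strand in 0 of 29, beside 7.43% of all promoters, and CATGTG in 0 of 29 beside 11.2%. The octamer ATTTGCAT occurred in 12 of 23 clustered promoters and in that of H3F3B, beside 1.80% of all. CCAAT occurred in 21 of 23 and 4 of 6 (35.7% of all), TATAAA in 15 and 4 (12.0%) and TTTNNCGC in 9 and 1 (6.90%). These are letter matches in a fixed window and say nothing of binding.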

How the data were processed

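The values are normalised read counts (a signal) that the authors deposited as 1 table. They had trimmed the reads with cutadapt 2.10, aligned them to hg38 with STAR 2.7.8a and normalised the counts in edgeR, as their methods and processing notes state. The counter, annotation, strand setting and low-value filter are not given in the sources used here. Low values were whole multiples of 1 read (100% within 0.1), so reads were recovered, and depth is the sum of reads. No column was left unmatched.

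Of 13523 genes 13052 reached 1 in at least 3 of 25 libraries. limma 3.58.1 (R 4.3.3) was fitted to log2(value + 1) with a mean per group over the 25 libraries, with a trended, robust prior, for 13 comparisons. Called means an adjusted p under 0.05 and a log2 change of at least 1. edgeR 4.0.16 and DESeq2 1.42.0 were run on the recovered reads as alternatives. The code was tested on simulated data.

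Genes, lists and the rule for naming genes (values per library for members averaging at least 20 over all libraries, or called and averaging at least 5 in the compared groups; the called extremes of each list) were chosen with earlier results of these data known. Members outside that rule were named with values or reads where a count of calls turned on them.

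Sequences and promoters came from RefSeq and the hg38 genome, read with pysam 0.24.0. Replicate numbers did not pair libraries: 2 of 26 same-numbered pairs correlated over 0.1 (-0.19 to 0.14).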

Additional observations from a re-analysis of the deposited data

Results flagged for a closer look

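The response to Torin differed between TFEB KO and WT by the test of the difference for 2 histone genes. For H2AFZ the difference was 0.40 on the log2 scale (limma adjusted p = 0.033), since its fall was smaller in TFEB KO. For HIST1H1B it was 1.85 (adjusted p = 0.045), and the group means behind it were 2.54 and 0.117 in WT without and with Torin and 0.408 and 0.732 in TFEB KO, at or near a few reads a library. The libraries on which H2AFZ depends are given above. HIST1H1B no longer passed without any 1 of 9 of the 11 libraries compared (adjusted p 0.057 to 0.20), nor in edgeR (0.068).

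The column shared by WT HBSS replicate 3 and WT Torin replicate 1 entered no comparison. Among members with a value of at least 5 there, HIST1H2BK stood at 13.4 and H1FX at 310.4, each over 1.5 times the highest WT control (7.72 and 204). For HIST1H2BK the WT HBSS libraries were at 14.2 and 14.5 and the WT Torin libraries at 5.39 and 8.06. For H1FX the shared column lay above both HBSS (249 and 264) and Torin (275 and 276). Its HIST1H4C value of 810 lay above all 4 treated WT libraries and below the controls. Which treatment the column belongs to was not decided from its values.

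No group held 4 or more libraries, so no library was compared with its own group as an outlier.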

How the results depend on the processing

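No change of direction occurred among 33 called and 65 further passing results of single histone genes, over 447 and 885 recomputed values. Of the called results, 405 values stayed called and 42 did not, 29 of those 42 with 1 library left out, and 14 of the 33 lost their call at least once in that way. Scaling by median of ratios moved the median of all genes by at most 0.042.

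The number of histone genes called moved by over 1.5 times as follows. In HBSS it was 3, and 5 with a pseudocount of 0.1, 1 with a minimum value of 5, 6 in edgeR and 5 in DESeq2. With Torin in WT it was 9, and 4 with a minimum of 5. In TFE3 KO it was 7, and 15 with a pseudocount of 0.1, in edgeR and in DESeq2, and 4 with a minimum of 5. In TFEB KO it was 3, and 5 with a pseudocount of 0.1. In DKO it was 5, and 13 with a pseudocount of 0.1 and 14 in edgeR and DESeq2. For HBSS against Torin it was 3, and 1 with a minimum of 5 and 0 with the duplicated column kept as WT Torin. For TFEB KO against WT it was 1, and 2 with a pseudocount of 0.1 and 0 with a minimum of 5. For TFE3 KO against TFEB KO it was 1, and 0 with a minimum of 5 and 3 in edgeR and DESeq2. For the Torin interaction of TFEB KO it was 1, and 0 with a minimum of 5, in edgeR, in DESeq2, with only the libraries compared and with the duplicated column kept as WT Torin. A minimum of 5 removes genes by construction; for the others the cause was not tested.

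With each library left out in turn the counts ranged from 2 to 6 in HBSS (6 without WT control replicate 2, 5 without HBSS replicate 2), 8 to 10, 7 to 10, 2 to 4 and 5 to 9 with Torin in WT, in TFE3 KO, in TFEB KO and in the DKO (8 without DKO control replicate 2, 9 without DKO Torin replicate 1), 2 to 4 for HBSS against Torin, 0 to 1 for TFEB KO against WT, 1 to 2 for TFE3 KO against TFEB KO, and 0 to 1 for the interactions of TFEB KO and of DKO, the latter 1 without WT control replicate 1.

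Without HIST1H4C the ratio of clustered to lone sums fell from 0.374, 0.295 and 0.269 to 0.0585, 0.0679 and 0.0568 in WT controls, HBSS and Torin, from 0.340 and 0.259 to 0.0655 and 0.0699 in TFE3 KO controls and Torin, from 0.319 and 0.244 to 0.0484 and 0.0541 in TFEB KO, and from 0.332 and 0.228 to 0.0606 and 0.0634 in DKO. A lower ratio follows from the removal itself, since HIST1H4C made up 71.2% to 86.1% of the clustered sum.

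With the replicate block the counts were 3 in HBSS and 9, 7, 3 and 5 with Torin, as without it, and HIST1H4C in HBSS against Torin no longer passed (0.51, adjusted p = 0.055).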
